A study of Mus musculus with 9 samples.

Results

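Border macrophages and monocytes of the mouse brain were described here through 9 marker genes, Mrc1, Cd163, Lyve1, Pf4, Cbr2, Ms4a7, F13a1, Clec10a and Ccr2, taken by name out of the 55335 genes of an FPKM table (fragments scaled to transcript length and library depth). All 9 were found, and each was above 0 in every library. RNA came from the substantia nigra, the midbrain region whose dopaminergic neurons are lost in Parkinson disease, with 3 libraries in each of 3 groups. The MPTP plus exercise mice received MPTP-HCl, a toxin of dopaminergic neurons, intraperitoneally at 20 mg/kg in 2 injections a week for 5 weeks, and ran freely on a wheel for 2 months, starting once the first injection had been given. The MPTP mice received the same injections without the wheel exercise, and the vehicle mice received saline on the same weekly schedule. No exercise group without MPTP was analysed here, and age, sex and strain were not given in the sources used here. The study asked what the toxin, and exercise after it, change in this tissue. Each group drew on 3 mice by its label, which implies but does not state a mouse for each library, and the p-values therefore reflect the variation among libraries, which may be technical.

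Border macrophages are the resident macrophages of the meninges, the perivascular spaces and the choroid plexus, as opposed to microglia, which sit in the brain tissue itself. They take up proteins, sugars and debris from the fluid at the brain's edges and carry the scavenger receptors named here. Monocytes are their blood-borne relatives, which enter inflamed tissue through CCR2, the receptor for the chemokines CCL2, CCL7 and CCL12. In bulk tissue fewer cells of a type and less RNA per cell cannot be told apart.

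The libraries differed in markers of the labelled tissue and of tissue beside it. Slc6a3, the dopamine transporter, was at 0.149, 0 and 10.6 FPKM in MPTP plus exercise replicates 1, 2 and 3, at 2.75, 0.0377 and 14.4 FPKM in MPTP and at 3.40, 1.41 and 10.8 FPKM in vehicle. It was thus near absent in exercise replicates 1 and 2 and in MPTP replicate 2. Other dopaminergic markers followed it in part. Pitx3 was above 0 only in MPTP replicate 1 and in replicate 3 of exercise, MPTP and vehicle. Th was highest in replicate 3 of each group, at 6.69, 12.5 and 15.6 FPKM in that order, and lowest in MPTP replicate 2, at 1.64 FPKM. Ddc, at 4.61 FPKM in vehicle replicate 3, and Nr4a2, at 6.17 FPKM in exercise replicate 1, departed from Slc6a3 there. Slc18a2, the vesicular monoamine transporter, did not follow it throughout either. It was at 5.09, 9.64 and 7.67 FPKM with exercise, at 7.44, 1.46 and 10.7 FPKM in MPTP and at 8.38, 4.73 and 3.62 FPKM in vehicle. Slc6a3 and Slc18a2 were both low in MPTP replicate 2, whereas exercise replicate 2 had no Slc6a3 and the second highest Slc18a2. Markers of the choroid plexus epithelium, a tissue that holds border macrophages of its own, summed to 960, 23.1 and 812 FPKM with exercise, to 1748, 966 and 2102 FPKM in MPTP and to 40.6, 49.7 and 351 FPKM in vehicle. Vehicle replicate 3 stood apart for haemoglobin and other erythrocyte genes, which summed to 437 FPKM there and to 10.8 to 59.6 FPKM elsewhere. The spacing of low FPKM values put the depth at 22100000 to 26800000 fragments per library, if the values were scaled to counted fragments.

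The promoters of the 4 genes that averaged 0.5 FPKM or more over the libraries, and so entered the test across genes, are given first, because these are the genes whose values carry the comparisons. Each window runs 5′ to 3′ on the strand of the gene, from 250 bases before to 50 bases after its RefSeq start on GRCm38.p6. Capitals mark GAGGAA, the core letters of sites of PU.1, a transcription factor that all macrophages use, or TGCTGAC, a half-site of MAF factors, read on either strand (TTCCTC and GTCAGCA on the other). The windows are chr11:120731972-120732271 (minus strand) for Cbr2, chr2:14229164-14229463 (plus) for Mrc1, chr5:90772185-90772484 (plus) for Pf4 and chr13:37050195-37050494 (minus) for F13a1.
Cbr2: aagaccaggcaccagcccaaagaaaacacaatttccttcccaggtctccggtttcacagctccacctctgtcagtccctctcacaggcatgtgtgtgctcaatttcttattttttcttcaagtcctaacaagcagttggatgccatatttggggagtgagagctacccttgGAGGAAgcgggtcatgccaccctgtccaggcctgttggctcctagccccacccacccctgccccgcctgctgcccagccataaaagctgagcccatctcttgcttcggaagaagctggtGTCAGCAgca
Mrc1: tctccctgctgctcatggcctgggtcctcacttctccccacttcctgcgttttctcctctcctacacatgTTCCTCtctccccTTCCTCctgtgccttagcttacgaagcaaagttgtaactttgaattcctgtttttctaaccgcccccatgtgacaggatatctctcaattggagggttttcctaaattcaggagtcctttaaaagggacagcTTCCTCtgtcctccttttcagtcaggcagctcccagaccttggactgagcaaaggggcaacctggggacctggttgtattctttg
Pf4: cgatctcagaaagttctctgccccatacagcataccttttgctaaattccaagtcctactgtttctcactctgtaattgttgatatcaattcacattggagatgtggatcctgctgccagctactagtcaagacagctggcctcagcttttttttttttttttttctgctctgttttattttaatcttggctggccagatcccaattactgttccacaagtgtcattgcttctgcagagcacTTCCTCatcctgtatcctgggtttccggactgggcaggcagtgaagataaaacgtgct
F13a1: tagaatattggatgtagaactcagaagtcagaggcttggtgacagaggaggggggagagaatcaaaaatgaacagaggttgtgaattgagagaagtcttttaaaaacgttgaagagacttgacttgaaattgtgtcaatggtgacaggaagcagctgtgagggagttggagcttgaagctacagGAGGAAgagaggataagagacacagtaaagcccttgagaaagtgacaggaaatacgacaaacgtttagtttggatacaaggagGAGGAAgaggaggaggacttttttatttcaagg
GAGGAA began 79 bases before the start in Cbr2 on the strand of the gene. In Mrc1 it lay on the other strand, at 180, 167 and 35 bases before the start, and in Pf4 also on the other strand, at 8 bases before. F13a1 held it 66 bases before and 17 bases after this start, and again 14 bases after the start in a second window that RefSeq gives. A window was found for 7 of the 9 genes (9 windows), and Lyve1 and Clec10a are named only. GAGGAA was in 6 of these 9 windows, covering 5 of 7 genes, against 28.3% of all 32851 windows of 300 bases. The 1 match outside the genes shown was in Ms4a7, 43 bases after its start, and neither Cd163 nor Ccr2 held these letters in the window. TGCTGAC was in 1 of the 9 windows, that of Cbr2 at 40 bases after the start, against 4.67% of all windows. The motifs do not overlap each other, and a match describes letters, not a bound site.

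All 9 genes were low in this tissue. Over all 9 libraries Cbr2 averaged 1.09 FPKM, Mrc1 0.911, Pf4 0.711, F13a1 0.570, Cd163 0.481, Lyve1 0.242, Clec10a 0.160, Ms4a7 0.0890 and Ccr2 0.0861 FPKM. FPKM is a level per length of transcript, so this order can be read between genes, but each neighbouring pair in it overlapped in range over the libraries. The ranges of the highest 5 genes lay above the ranges of Ms4a7 and Ccr2 throughout. Microglial genes such as Tmem119, a membrane protein of microglia, were higher, at 7.01 ± 0.944 FPKM with exercise, 7.32 ± 1.09 in MPTP and 6.57 ± 0.650 in vehicle (SD, n = 3 each). Fragments were estimated on the same assumption about scale, with all exonic bases of a gene taken as its length. The genes have 2 to 10 transcripts each, so the length behind the FPKM may differ. The values then corresponded to about 13 to 111 fragments per library for Cbr2, 79 to 183 for Mrc1, 78 to 125 for F13a1 and 43 to 81 for Cd163. Lyve1 stood at about 10 to 31, Pf4 at 7 to 22, Ccr2 at 6 to 25, Clec10a at 7 to 16 and Ms4a7 at 5 to 17 fragments, so that few fragments stood behind each value of these 5. Cbr2 was similarly low in the exercise libraries, at about 23, 13 and 13 fragments in replicates 1, 2 and 3.

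**Figure D1:**
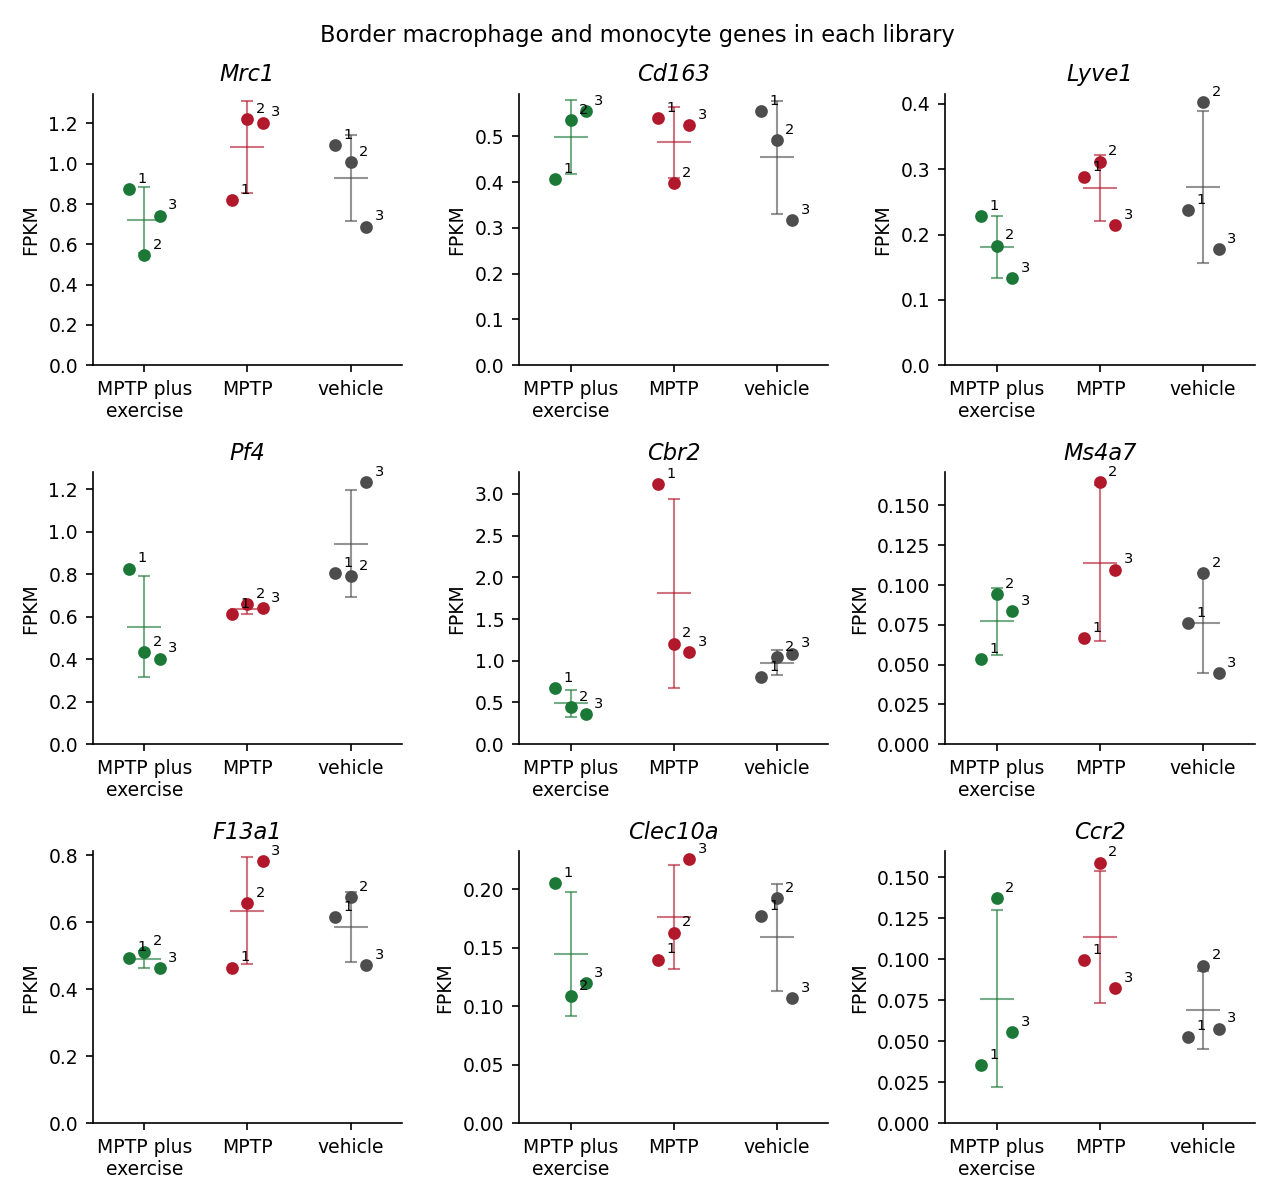
FPKM of the 9 genes in each library, by group, with points numbered by replicate and bars for the mean ± SD (n = 3 each). Cbr2 in MPTP replicate 1, at 3.12 FPKM, is the highest value of any panel, and the 3 exercise libraries lie below all others in the Cbr2 panel.

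No member passed the test in any comparison. The test was limma on log2(FPKM + 1) over the 15997 genes averaging 0.5 FPKM or more, with Benjamini-Hochberg adjustment over all of them and a threshold of 0.05. Of the 4 members in it, 0 passed between MPTP plus exercise and MPTP, 0 between MPTP plus exercise and vehicle and 0 between MPTP and vehicle. Across all genes 0%, 0% and 0.0125% passed in these comparisons, the last being 2 genes outside the members, H2-K1 and Igfbp2, named after their values were seen. At an unadjusted p under 0.05 limma gave 1 member (Cbr2) between MPTP plus exercise and MPTP against 3.99% of all genes (639), 1 member (Pf4) between MPTP plus exercise and vehicle against 6.54% (1047), and 0 members between MPTP and vehicle against 4.09% (654). The other 5 members lay under the minimum, and their differences come from a fit without it over 35406 genes, where 0 of them passed either and 0 had an unadjusted limma p under 0.05. That fit called 0.00847% of genes between MPTP plus exercise and MPTP, 0% between MPTP plus exercise and vehicle and 0.00847% between MPTP and vehicle. Differences are on the log2(FPKM + 1) scale, which shrinks those of genes as low as these, so ratios of group means are given beside them. An exact two-sided permutation test of 3 libraries against 3 cannot go below p = 0.1.

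Cbr2, a carbonyl reductase known in mice as a marker of tissue-resident macrophages, showed the widest spread among the 9 genes, 8.76-fold between its lowest and highest library. Cbr2 (ENSMUSG00000025150; GRCm38 chr11:120729489-120732114, minus strand, protein coding) was at 0.672, 0.445 and 0.356 FPKM in MPTP plus exercise replicates 1, 2 and 3. In MPTP it was at 3.12, 1.20 and 1.11 FPKM, and in vehicle at 0.807, 1.04 and 1.09 FPKM. All 3 exercise libraries lay below all libraries of the other groups, and MPTP replicate 1 stood far above the other MPTP libraries. The exercise values rest on only about 23, 13 and 13 fragments, on the same assumptions about scale and length. The mean with exercise was 0.491 ± 0.163 FPKM, against 1.81 ± 1.13 in MPTP, a ratio of 0.271 (log2 difference −0.85, SE 0.24, limma p = 0.00616, adjusted p = 0.9999, exact permutation p = 0.1). Against vehicle, at 0.978 ± 0.150 FPKM, the ratio with exercise was 0.502 (log2 difference −0.41, SE 0.24, limma p = 0.118, adjusted p = 0.765, exact permutation p = 0.1). Without MPTP replicate 1 the log2 difference between MPTP plus exercise and MPTP was −0.54. In MPTP the mean was 1.85 times that of vehicle (log2 difference 0.44, SE 0.24, limma p = 0.0977, adjusted p = 0.991, exact permutation p = 0.1). There the groups did not overlap, but the lowest MPTP value of 1.11 was next to the highest vehicle value of 1.09, and the log2 difference without MPTP replicate 1 was 0.13. Separation of this kind, all 3 lower, was found for 4.38% of genes between MPTP plus exercise and MPTP and for 6.57% between MPTP plus exercise and vehicle. All 3 higher was found for 3.79% between MPTP and vehicle.

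The endocytic receptors of the macrophage surface are Mrc1, Cd163, Lyve1 and Clec10a, and none of them separated any pair of groups. Mrc1 encodes the mannose receptor CD206, which takes up glycoproteins (ENSMUSG00000026712; GRCm38 chr2:14229392-14332057, plus strand, protein coding). Mrc1 was at 0.872, 0.547 and 0.742 FPKM with exercise, at 0.818, 1.22 and 1.20 FPKM in MPTP and at 1.09, 1.01 and 0.688 FPKM in vehicle. Exercise replicates 2 and 3 lay below every MPTP library, while exercise replicate 1 lay above MPTP replicate 1. The mean was 0.720 ± 0.164 FPKM with exercise against 1.08 ± 0.229 in MPTP, a ratio of 0.666 (log2 difference −0.27, SE 0.13, limma p = 0.0644, adjusted p = 0.9999, exact permutation p = 0.2). In vehicle it was 0.929 ± 0.214 FPKM, with a log2 difference of −0.16 for exercise (SE 0.13, limma adjusted p = 0.791) and of 0.11 for MPTP (SE 0.13, limma adjusted p = 0.991).

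Cd163 encodes the scavenger receptor for haemoglobin bound to haptoglobin (ENSMUSG00000008845; GRCm38 chr6:124304656-124330527, plus strand, protein coding). Its level was 0.407, 0.536 and 0.556 FPKM with exercise, 0.539, 0.398 and 0.525 FPKM in MPTP and 0.556, 0.491 and 0.317 FPKM in vehicle. The groups overlapped throughout, with means of 0.4996 ± 0.0811, 0.488 ± 0.0775 and 0.455 ± 0.124 FPKM in that order. Its log2 difference was 0.01 between MPTP plus exercise and MPTP (SE 0.09, limma without the minimum, adjusted p = 1, exact permutation p = 0.6). Cd163 was the 1 member whose mean with exercise was not below that of MPTP.

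Lyve1 encodes a receptor for hyaluronan, carried by perivascular and meningeal macrophages and also by lymphatic endothelium (ENSMUSG00000030787; GRCm38 chr7:110850607-110863239, minus strand, protein coding). Lyve1 was at 0.228, 0.183 and 0.133 FPKM with exercise, at 0.288, 0.312 and 0.215 FPKM in MPTP and at 0.238, 0.403 and 0.178 FPKM in vehicle. Exercise replicate 1 lay just above MPTP replicate 3, and that was the only overlap between these groups. The ratio of means was 0.668 between MPTP plus exercise and MPTP (log2 difference −0.11, SE 0.07, limma without the minimum, p = 0.170, adjusted p = 1, exact permutation p = 0.2). It was 0.665 between MPTP plus exercise and vehicle (exact permutation p = 0.3) and 0.995 between MPTP and vehicle (exact permutation p = 1). Of 5 lymphatic endothelium genes, Mmrn1 was listed at 0 in 8 libraries, and the list summed to 8.46 to 13.6 FPKM with exercise, 9.86 to 12.8 in MPTP and 10.1 to 10.7 in vehicle. Most of that sum was Pdpn and Prox1, which glia and neurons also express, and its part in the Lyve1 values was not tested.

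Clec10a encodes the lectin MGL1, which binds sugars (ENSMUSG00000000318; GRCm38 chr11:70156197-70170834, plus strand, protein coding). Its paralog Mgl2 is close in sequence, and how reads were shared between them is uncertain. The level was 0.205, 0.108 and 0.120 FPKM with exercise, 0.140, 0.163 and 0.225 FPKM in MPTP and 0.177, 0.192 and 0.107 FPKM in vehicle. Each group held low and high values, and the ratio of means was 0.820 between MPTP plus exercise and MPTP (exact permutation p = 0.5). Mgl2, from the same small family, was at 0.114, 0.212 and 0.177 FPKM with exercise, at 0.395, 0.317 and 0.108 FPKM in MPTP and at 0.342, 0.282 and 0.148 FPKM in vehicle.

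Among the remaining genes without a role in chemotaxis, F13a1 encodes the A subunit of coagulation factor XIII, which macrophages make (ENSMUSG00000039109; GRCm38 chr13:36867178-37050244, minus strand, protein coding). F13a1 shares 74 exonic bases with Gm30489 on the other strand, and since strandedness is not given in the sources used here its value is uncertain to that extent. It was at 0.494, 0.512 and 0.462 FPKM with exercise, at 0.464, 0.656 and 0.782 FPKM in MPTP and at 0.615, 0.675 and 0.471 FPKM in vehicle. The exercise libraries lay close together, with MPTP replicate 1 and vehicle replicate 3 among them. Means were 0.489 ± 0.0251 FPKM with exercise, 0.634 ± 0.160 in MPTP and 0.587 ± 0.105 in vehicle, and the log2 difference between MPTP plus exercise and MPTP was −0.13 (SE 0.10, limma adjusted p = 0.9999, exact permutation p = 0.3). F13b, the gene of the carrier subunit of the same factor, was listed at 0 in all 9 libraries.

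Ms4a7, a membrane protein of the MS4A family that separates border macrophages from microglia in mice, was at 0.0535, 0.0944 and 0.0834 FPKM with exercise, at 0.0667, 0.165 and 0.110 FPKM in MPTP and at 0.0760, 0.108 and 0.0448 FPKM in vehicle (ENSMUSG00000024672; GRCm38 chr19:11321039-11336146, minus strand, protein coding). MPTP replicates 2 and 3 were the highest of the 9, and MPTP replicate 1 lay within the other groups. The ratio of means was 0.678 between MPTP plus exercise and MPTP and 1.49 between MPTP and vehicle (exact permutation p = 0.4 in both). These values rest on about 5 to 17 fragments per library.

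Pf4 encodes the chemokine CXCL4, which platelets store and brain border macrophages also express (ENSMUSG00000029373; GRCm38 chr5:90772435-90773383, plus strand, protein coding). Its mean was clearly highest in vehicle, which held for no other member except Lyve1, where vehicle and MPTP were nearly equal. Pf4 was at 0.826, 0.432 and 0.403 FPKM with exercise, at 0.613, 0.658 and 0.641 FPKM in MPTP and at 0.805, 0.791 and 1.23 FPKM in vehicle. All 3 MPTP libraries lay below all 3 vehicle libraries, which was the case for 3.58% of genes. The mean was 0.637 ± 0.0231 FPKM in MPTP against 0.943 ± 0.251 in vehicle, a ratio of 0.676 (log2 difference −0.24, SE 0.13, limma p = 0.106, adjusted p = 0.991, exact permutation p = 0.1). Without vehicle replicate 3 this log2 difference was −0.14. With exercise it was 0.553 ± 0.236 FPKM, 0.587 times that of vehicle (log2 difference −0.33, SE 0.13, limma p = 0.0373, adjusted p = 0.753), although exercise replicate 1 lay above vehicle replicates 1 and 2 (exact permutation p = 0.3). The highest Pf4 value came from vehicle replicate 3, the library high in erythrocyte genes. Of 10 platelet genes 0 reached a mean of 0.5 FPKM, Gp6 was listed at 0 in all libraries and Ppbp, a major platelet chemokine, was at 0 to 0.0775 FPKM. The platelet list summed to 1.22 to 1.42 FPKM with exercise, 1.18 to 1.67 in MPTP and 1.03 to 1.57 in vehicle, and to 1.57 FPKM in vehicle replicate 3. The part of blood in the Pf4 values was not tested.

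Ccr2, the monocyte gene of the group, was at 0.0352, 0.137 and 0.0554 FPKM with exercise, at 0.0993, 0.159 and 0.0824 FPKM in MPTP and at 0.0528, 0.0960 and 0.0576 FPKM in vehicle (ENSMUSG00000049103; GRCm38 chr9:124101950-124113557, plus strand, protein coding). Replicate 2 was the highest library of each group, and the groups overlapped. MPTP was above vehicle in each of the 3 pairs of libraries with the same number, a pattern whose share over all genes was not counted. With that number as a block over all 9 libraries, the exercise group included, the log2 difference was 0.06 (limma without the minimum, adjusted p = 0.905). The ratio of means was 0.669 between MPTP plus exercise and MPTP (exact permutation p = 0.4), 1.10 between MPTP plus exercise and vehicle (exact permutation p = 0.9) and 1.65 between MPTP and vehicle (exact permutation p = 0.2). Of the ligands of this receptor, Ccl2 was at 0 to 0.224 FPKM and Ccl7 at 0 to 0.193 FPKM. Ccl12 was higher, at 1.06, 0.544 and 1.03 FPKM with exercise, at 0.527, 1.70 and 2.04 FPKM in MPTP and at 0.264, 0.559 and 0.222 FPKM in vehicle. MPTP replicate 1 lay within the range of vehicle, and the log2 difference between MPTP and vehicle was 0.79 (SE 0.25, limma adjusted p = 0.991). In all, 12 ligands and partners of the 9 genes were listed, among them the macrophage growth factors Il34 and Csf1 and the haem oxygenase Hmox1, and 0 of the 4 averaging 0.5 FPKM or more passed in any comparison. Il34, a ligand of the macrophage receptor CSF1R, averaged 11.9 ± 3.08 FPKM with exercise, 11.9 ± 3.54 in MPTP and 11.7 ± 4.03 in vehicle.

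**Figure D2:**
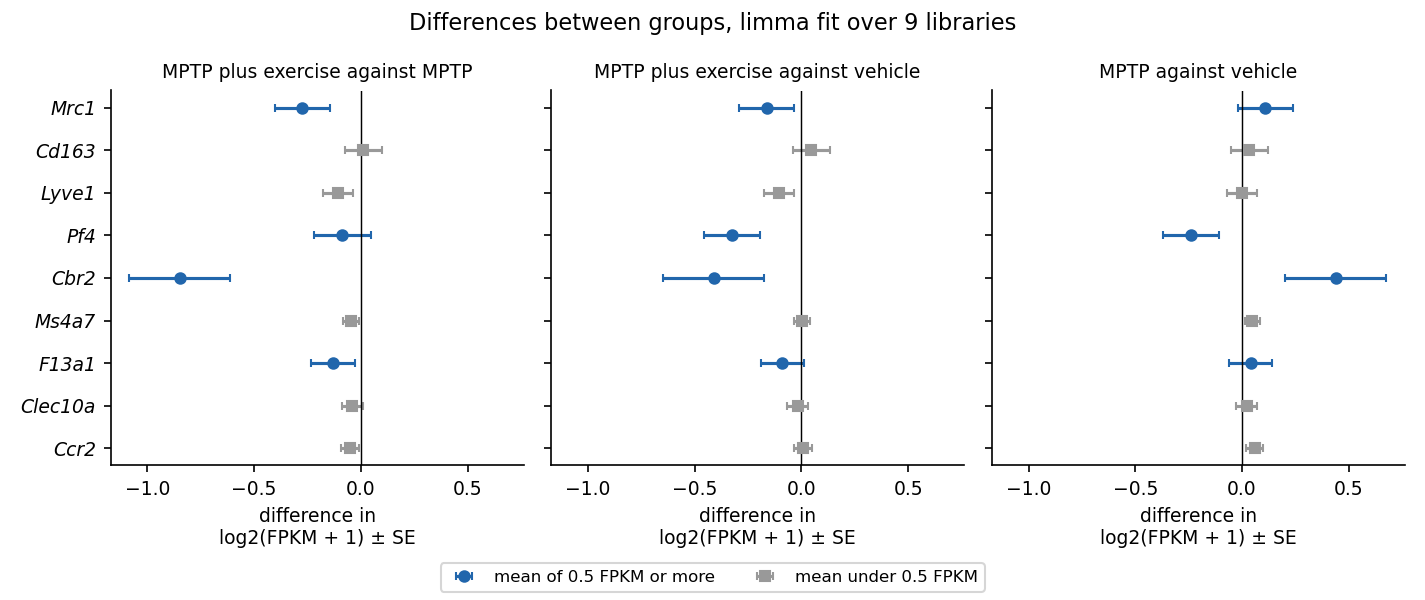
Difference between groups for each gene on the log2(FPKM + 1) scale, as the limma estimate ± SE (n = 3 libraries per group), with genes under a mean of 0.5 FPKM in grey. Cbr2 lies farthest from 0 between MPTP plus exercise and MPTP, at −0.85, and no point passes the adjusted threshold.

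Read across the 9 genes, the group means stood lower with exercise than in MPTP for 8 of 9, with Cd163 the exception, under the values as deposited, after rescaling to the same sum and after quantile normalization. The median ratio of means was 0.678 and the range 0.271 to 1.02. Over all 35406 genes above 0 in a library, 53.3% had a lower mean with exercise than in MPTP. Between MPTP plus exercise and vehicle 6 of 9 had a lower mean, against 53.8% of all genes, with a median ratio of 0.834. There Ms4a7 moved to the lower side after rescaling to the same sum and Clec10a to the higher side after quantile normalization, on the log2 scale. Between MPTP and vehicle 7 of 9 had a higher mean, against 46.9% of all genes, with a median ratio of 1.11. That count rested on vehicle replicate 3: without it 4 of 9 (Mrc1, Cbr2, Ms4a7 and Ccr2) had a higher mean in MPTP, against 48.7% of all genes. With all libraries kept, Lyve1 and Pf4 were the members with a lower mean in MPTP. The log2 difference of Lyve1 was 0.001 as deposited, −0.016 after rescaling to the same sum and 0.012 after quantile normalization. For the 4 tested members the median log2 difference was −0.20 between MPTP plus exercise and MPTP, −0.24 between MPTP plus exercise and vehicle and 0.07 between MPTP and vehicle, against −0.01, −0.02 and −0.01 over all tested genes. Between MPTP and vehicle this median was 0.0012 without vehicle replicate 3 and 0.02 without MPTP replicate 3 or with array weights. The comparisons share libraries: the MPTP libraries stand in 2 of them on opposite sides, so high MPTP values alone set opposite directions.

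Summed over the 9 genes the level was 3.79, 2.995 and 2.91 FPKM with exercise, 6.14, 4.94 and 4.89 FPKM in MPTP and 4.42, 4.80 and 4.18 FPKM in vehicle. These sums did not overlap between any of the groups, but the lowest MPTP sum of 4.89 was next to the highest vehicle sum of 4.80 FPKM. How often sums of 9 other genes separate in this way was not counted. With Cbr2 left out they were 3.12, 2.55 and 2.55 FPKM with exercise, 3.03, 3.73 and 3.78 FPKM in MPTP and 3.61, 3.76 and 3.10 FPKM in vehicle, and then all pairs of groups overlapped. The separation of the sums was thus lost without Cbr2, and sums without any other member were not taken.

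The 9 genes did not vary as 1 block. Over the 9 libraries the Pearson correlation of log2(FPKM + 1) was above 0 in 29 of 36 pairs of genes, with a median of 0.17. These points share the groups, the dissection and the depth of each library, and at these low levels a weak correlation says little. Mrc1 was nearest to F13a1 (r = 0.81) and to Clec10a (r = 0.79), and F13a1 and Clec10a were alike as well (r = 0.73). Ms4a7 was nearest to Ccr2 (r = 0.77), the 2 lowest genes. Lyve1 was nearest to Mrc1 (r = 0.53) and Cbr2 to Lyve1 (r = 0.51). Cd163 and Pf4 stood apart: the nearest gene of Cd163 was F13a1 at r = 0.15, that of Pf4 was Cbr2 at r = 0.23, and between themselves Cd163 and Pf4 had the lowest value, r = −0.75.

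**Figure D3:**
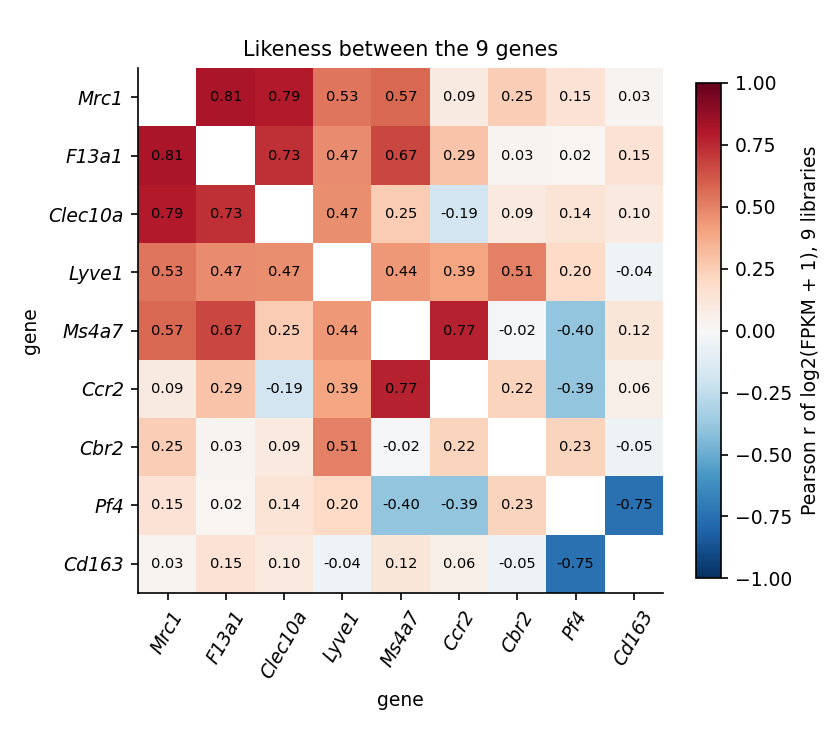
Pearson correlation of log2(FPKM + 1) over the 9 libraries between each pair of the 9 genes, from blue (−1) to red (1). Mrc1, F13a1 and Clec10a form the reddest corner, at 0.73 to 0.81, and the pair of Pf4 and Cd163 is the bluest at −0.75.

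With each gene standardised over the libraries and the 9 averaged, the level was −0.33, −0.46 and −0.72 SD units with exercise, 0.13, 0.67 and 0.57 in MPTP and 0.16, 0.61 and −0.62 in vehicle. The exercise libraries were all low and the MPTP libraries all above 0, while vehicle replicate 3 was as low as the exercise libraries. MPTP replicate 2 held the highest value of 3 genes and MPTP replicate 3 that of 2. Exercise replicate 3 held the lowest value of 4 genes and vehicle replicate 3 that of 3.

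Genes beyond the 9 that mark the same cells were read for comparison. Of 23 other border macrophage genes, 18 had a lower and 3 a higher mean with exercise than in MPTP, and 0 of the 7 tested passed (limma, 1 at an unadjusted p under 0.05, median log2 difference −0.19, against −0.01 over all tested genes). Hpgd, an enzyme that degrades prostaglandins, averaged 4.08 ± 1.15 FPKM with exercise, 4.99 ± 0.368 in MPTP and 3.96 ± 0.869 in vehicle. Stab1, a scavenger receptor, averaged 1.29 ± 0.214 FPKM with exercise, 1.61 ± 0.200 in MPTP and 1.64 ± 0.263 in vehicle. Tgfbi, a secreted matrix protein, averaged 1.20 ± 0.170 FPKM with exercise, 1.69 ± 0.265 in MPTP and 1.56 ± 0.184 in vehicle, with exercise libraries all below the MPTP libraries (log2 difference −0.29, SE 0.11, limma adjusted p = 0.9999). Dab2, an endocytic adaptor, averaged 1.57 ± 0.526 FPKM with exercise, 2.11 ± 0.496 in MPTP and 1.75 ± 0.236 in vehicle. Against vehicle, 14 of these 23 genes were lower and 8 higher with exercise, and 8 lower and 14 higher in MPTP, with 0 of the 7 tested past the threshold in either comparison.

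Of 19 other monocyte genes, 15 had a lower and 4 a higher mean with exercise than in MPTP, and 0 of the 5 tested passed (limma, 1 at an unadjusted p under 0.05). Their median over the tested genes was 0.02 on the log2 scale, on the other side of 0. Lyz2, a lysozyme of monocytes and macrophages with a close paralog, averaged 7.23 ± 0.197 FPKM with exercise, 10.1 ± 1.49 in MPTP and 8.18 ± 1.44 in vehicle (exercise against MPTP: log2 difference −0.42, SE 0.13, limma adjusted p = 0.9999). All 3 exercise libraries lay below all 3 MPTP libraries in Lyz2. Vcan, made by monocytes and by glia, averaged 1.89 ± 0.338 FPKM with exercise, 1.75 ± 0.331 in MPTP and 2.29 ± 0.265 in vehicle. S100a4 averaged 1.73 ± 0.295, 1.82 ± 0.226 and 1.58 ± 0.587 FPKM in the same order. Between MPTP plus exercise and vehicle 10 of the 19 were lower and 9 higher, and between MPTP and vehicle 5 were lower and 14 higher, with 0 called in each.

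Genes shared by all myeloid cells were lower with exercise than in MPTP in 12 of 12 cases and higher in MPTP than in vehicle in 12 of 12, with 0 of 11 tested genes past the threshold in each (limma, 1 and 2 at an unadjusted p under 0.05). With exercise 8 of the 12 were higher than in vehicle. Tyrobp, a signalling adaptor, averaged 16.04 ± 2.31 FPKM with exercise, 17.0 ± 5.88 in MPTP and 13.04 ± 2.65 in vehicle, and Csf1r averaged 13.5 ± 1.82, 14.4 ± 1.75 and 13.8 ± 1.11 FPKM. Microglial markers were divided, 8 of 12 lower with exercise than in MPTP and 9 of 12 higher in MPTP than in vehicle, and 0 of 12 passed (limma, 1 and 0 at an unadjusted p under 0.05). Their sum was 82.5 to 101 FPKM with exercise, 90.2 to 109 in MPTP and 81.1 to 102 in vehicle.

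Among the 10 genes whose pattern over the 9 libraries was most like the standardised level of the 9 members, of 13711 genes averaging 1 FPKM or more, were Srgn (r = 0.96), Slc47a1 (0.94), Lyz2 (0.93), Ephb4 (0.91), Slc6a13 (0.90), Serping1 (0.89), Atf4 (0.89), Mir6955 (0.88) and Zdhhc7 (0.87). Srgn, a proteoglycan of secretory granules in blood cells, averaged 2.53 ± 0.253 FPKM with exercise, 3.44 ± 0.283 in MPTP and 3.05 ± 0.373 in vehicle. With the group means removed its r was 0.91. Since Srgn was picked as the highest r in these same libraries, this value is no separate evidence of a likeness within groups. Slc47a1 and Slc6a13, transporters of meningeal fibroblasts, had r = 0.85 and 0.92 with the group means removed. With so many genes and 9 points, high values of r arise without any relation, and the order is given as a description.

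Fibroblasts of the meninges and vessels were the cell type nearest to the 9 genes. Of 14 such markers, the 12 averaging 1 FPKM or more had a median r of 0.76 with the members' level, and 0.64 with the group means removed, against −0.003 and −0.04 over all genes compared. For endothelium the medians over 7 genes were 0.65 and 0.13, and for mural cells over 7 genes 0.64 and 0.26. For microglia they were −0.10 and −0.16 over 12 genes and for choroid plexus epithelium 0.13 and −0.45 over 12. The other myeloid lists had lower medians than the fibroblast markers. These were 0.38 and 0.005 over 6 other border macrophage genes, all 6 with r above 0 before the group means were removed. They were −0.23 and −0.47 over 3 other monocyte genes, of which only Lyz2 had r above 0, at 0.93, and 0.88 with the group means removed. For 10 pan-myeloid genes, which microglia share, they were 0.19 and −0.07. Medians over so few genes do not show whether macrophage and monocyte genes follow the members. The fibroblast markers summed to 30.4, 24.4 and 33.4 FPKM with exercise, to 42.7, 58.4 and 47.8 FPKM in MPTP and to 32.9, 58.6 and 29.0 FPKM in vehicle. All 14 had a lower mean with exercise than in MPTP, with 0 of 13 tested genes past the threshold (limma, 5 at an unadjusted p under 0.05) and a median log2 difference of −0.46. Igf2 averaged 8.02 ± 2.35 FPKM with exercise, 17.5 ± 3.74 in MPTP and 12.7 ± 5.85 in vehicle. All 7 endothelial and all 7 mural genes were lower with exercise than in MPTP as well, with 0 past the threshold (limma, 6 and 1 at an unadjusted p under 0.05).

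Markers of other tissue moved with the groups too. All 14 choroid plexus genes were lower with exercise than in MPTP and higher in MPTP than in vehicle, and 13 of 14 were higher with exercise than in vehicle, with 0 past the threshold in any comparison (limma, 6, 12 and 0 at an unadjusted p under 0.05). The choroid plexus sums and the members' level went together in some libraries and apart in others. Vehicle replicate 2 held a high members' level of 0.61 SD units with 49.7 FPKM of choroid plexus markers. Exercise replicate 3 held the lowest level of −0.72 with 812 FPKM. Exercise replicate 1, in contrast, held the highest of its group in both, at −0.33 SD units and 960 FPKM. Neutrophil genes summed to 3.83, 2.66 and 2.25 FPKM with exercise, to 6.73, 10.2 and 10.7 FPKM in MPTP and to 5.93, 9.83 and 10.1 FPKM in vehicle, so that the exercise libraries lay below all others. S100a9 averaged 0.810 ± 0.603 FPKM with exercise, 3.98 ± 0.995 in MPTP and 3.72 ± 1.52 in vehicle (exercise against MPTP: log2 difference −1.49, SE 0.30, limma adjusted p = 0.857). Of 10 neutrophil genes, 8 had a lower mean with exercise than in MPTP and 9 than in vehicle, and 0 of 4 tested genes passed (limma, 3 in each comparison at an unadjusted p under 0.05). The 5 erythrocyte genes were lower with exercise than in either other group, and lower in MPTP than in vehicle, with 0 past the threshold (limma, 4 at an unadjusted p under 0.05, all between MPTP plus exercise and vehicle). The part of these other cells and of the dissection in the values of the 9 genes was not tested.

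**Figure D4:**
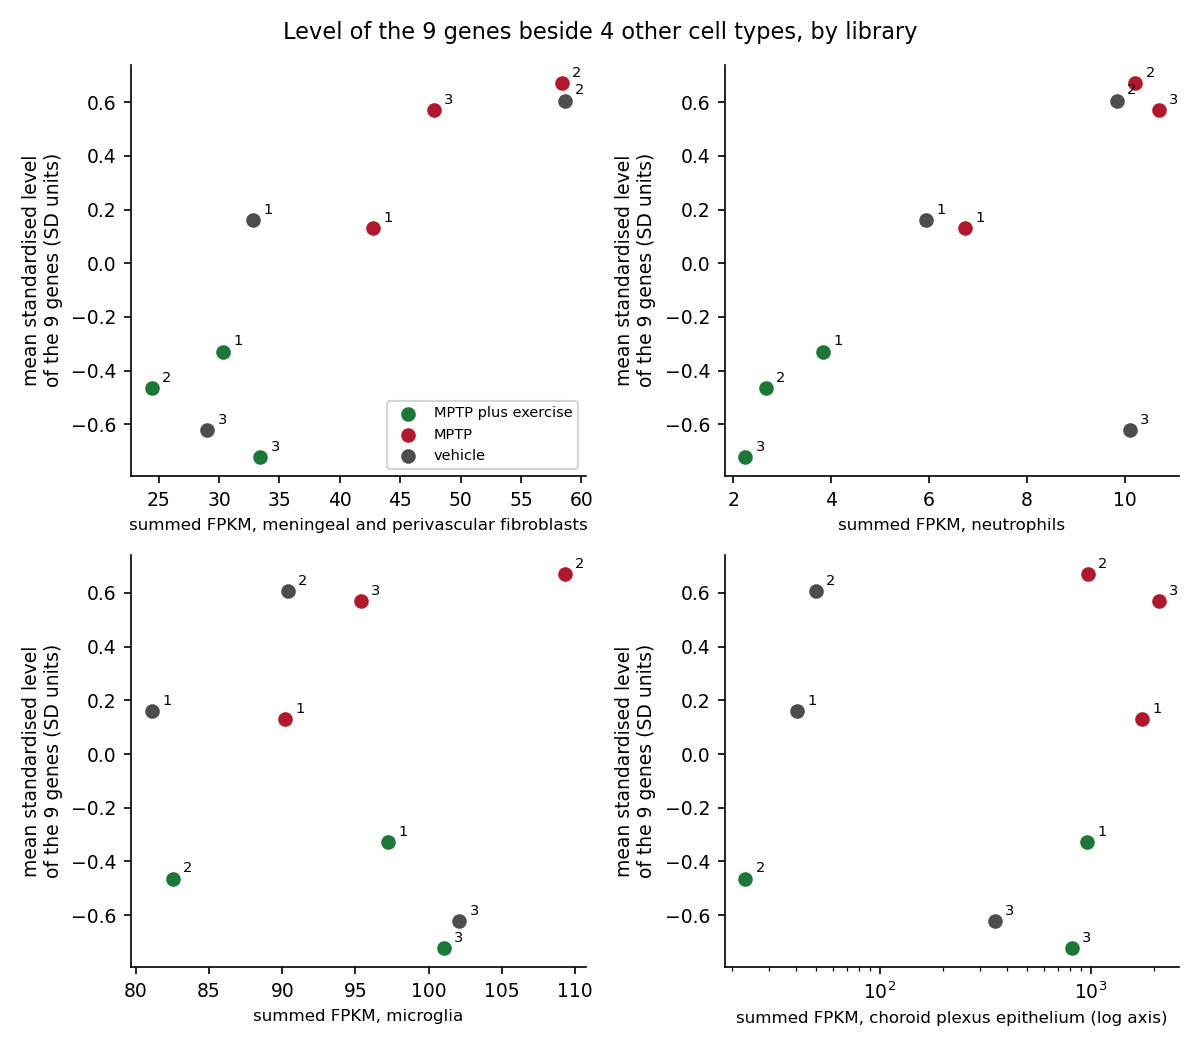
Mean standardised level of the 9 genes (SD units) in each library against the summed FPKM of marker genes of fibroblasts, neutrophils, microglia and choroid plexus epithelium (log axis for the last), with points numbered by replicate. The 2 libraries with the highest fibroblast sums, vehicle replicate 2 at 58.6 and MPTP replicate 2 at 58.4 FPKM, have the highest level, while the microglia sums spread over all levels.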

How the data were processed

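The authors deposited FPKM for 55335 genes in 9 libraries, which were used as deposited. Per the labels' protocols mRNA was enriched on beads and sequenced on a NovaSeq6000, and the submitters' processing notes name bcl2fastq, HTSeq, DESeq2 and GRCm38. The aligner, the tool behind the FPKM and the strandedness were not given in the sources used here. The members and lists were chosen with earlier results of these data known.

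Symbols came from GENCODE M21 (55154 matched, 181 not) and promoters from RefSeq (GRCm38.p6). Limma with a mean-variance trend was fitted to log2(FPKM + 1), a pseudocount of 1, for genes averaging 0.5 FPKM or more, all 9 libraries in 1 fit, two-sided, with Benjamini-Hochberg adjustment and a threshold of 0.05. The exact permutation tests covered the 20 ways to divide 6 libraries. Named genes were all 9 members, up to 4 of each other list with the highest mean FPKM, and the 10 most alike by Pearson correlation, and some of these are not reported here. Genes listed at 0 and partners of a named gene are named besides. The depth estimate used 19516 genes, whose low values were whole steps, to within 0.05, in 37.9% to 40.1% of cases, too few to recover counts. FPKM keep no counts, so no counting intervals are given.

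The replicate numbers carry no stated meaning. Deviations from the group mean correlated at 0.25, 0.33 and 0.11 between MPTP and vehicle libraries of 1 number, at −0.34, −0.13 and 0.25 between MPTP plus exercise and MPTP, and at −0.26, 0.007 and 0.24 between MPTP plus exercise and vehicle. By the rule that every pair exceed 0.1, only MPTP and vehicle qualified, replicate 3 just above it, from the data and not the labels. Libraries of different numbers were not compared, so these values do not establish a pairing. The main tests treated all libraries as unpaired. The number entered only as a block in an alternative over all 9 libraries, the exercise group included. The limma script was tested on simulated data with changes planted only in genes above the level of every member. That test does not show whether changes in genes as low as these would be found. Alternatives changed the filter, pseudocount, scaling, variance model, weights, block and libraries. Software was Python 3.11.15 with pandas 2.3.3, numpy 2.4.6, scipy 1.17.1 and matplotlib 3.10.9, and R 4.3.3 with limma 3.58.1.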

Additional observations from a re-analysis of the deposited data

How the results depend on the processing

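In 20 alternatives (11 settings and 9 fits without 1 library) no member passed the limma threshold, with lowest adjusted p of 0.510 between MPTP plus exercise and MPTP, 0.465 between MPTP plus exercise and vehicle and 0.759 between MPTP and vehicle. Fitting the replicate number as a block gave 0, 0 and 3 genes past the threshold in these comparisons and changed no member's call. The count of genes between MPTP plus exercise and MPTP was 1 with the same sum, 3 with no filter, 1 with array weights and 0 to 25 without 1 library (25 without MPTP replicate 1). Between MPTP plus exercise and vehicle it was 0 to 2 without 1 library. Between MPTP and vehicle it was 0 with only these groups fitted and 0 to 32 without 1 library: 32 without MPTP replicate 1, 4 without vehicle replicate 1, 1 without vehicle replicate 3 and 0 without MPTP replicate 2 or 3 or any exercise library. The members' median log2 fold change between MPTP plus exercise and MPTP was −0.086 with no filter (9 members), −0.85 at a mean of at least 1 FPKM (Cbr2 only) and −0.41 with a pseudocount of 0.1. Between MPTP plus exercise and vehicle it was −0.0895 with no filter, −0.10 at 0.1 FPKM (7 members), −0.41 at 1 FPKM and −0.52 with a pseudocount of 0.1. Between MPTP and vehicle it was 0.44 at 1 FPKM, 0.017 with array weights and 0.0012 to 0.122 without 1 library (0.0012 without vehicle replicate 3, 0.0202 without MPTP replicate 3). At 1 FPKM the other 8 members have no value. As an alternative chosen after seeing the data, the count of members by the direction of their mean was repeated without each library: 8 to 9 of 9 were lower with exercise than in MPTP, 5 to 8 of 9 lower with exercise than in vehicle and 4 to 8 of 9 higher in MPTP than in vehicle (4 without vehicle replicate 3). Directions that turned were all near 0. Rescaling to the same sum turned Lyve1 (−0.016, MPTP against vehicle) and Ms4a7 (−0.0043, exercise against vehicle). Array weights turned Lyve1 (−0.016) and F13a1 (−0.013) between MPTP and vehicle, Cd163 (−0.0074) between exercise and MPTP, and Ms4a7 (−0.0059) and Ccr2 (−0.0098) between exercise and vehicle. Quantile normalization turned Clec10a (0.0063, exercise against vehicle). The ranges that follow span all fits without 1 library, for each member that turned in any of them. Between MPTP and vehicle the log2 differences ranged over −0.035 to 0.085 for Cd163, −0.052 to 0.073 for Lyve1, −0.025 to 0.117 for F13a1 and −0.011 to 0.044 for Clec10a. Between exercise and MPTP they ranged over −0.032 to 0.057 for Cd163. Between exercise and vehicle they ranged over −0.024 to 0.096 for Cd163, −0.020 to 0.023 for Ms4a7, −0.056 to 0.0043 for Clec10a and −0.032 to 0.036 for Ccr2. The cause was not tested. The low depth of Ms4a7, Ccr2, Clec10a, Pf4 and Lyve1, and of Cbr2 in the exercise libraries, limits what can be seen in them.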

Other observations

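Other immune and ventricular cell types were read in the same way. Of 7 dendritic cell genes 5 had a lower mean with exercise than in MPTP and 2 a higher one, and Flt3, the highest of them, averaged 2.22 ± 0.713 FPKM with exercise, 2.45 ± 0.550 in MPTP and 2.61 ± 0.812 in vehicle. Zbtb46 averaged 0.981 FPKM over all libraries, whereas Xcr1, Clec9a, Cd209a, Itgax and Ccr7 reached at most 0.182 FPKM in any library. Of 12 lymphocyte genes 8 were lower and 4 higher with exercise than in MPTP, and 2 reached a mean of 0.5 FPKM. Trbc2 was at 15.5, 4.29 and 4.35 FPKM with exercise, at 3.44, 11.3 and 2.97 FPKM in MPTP and at 1.98, 10.1 and 7.40 FPKM in vehicle, so that libraries within a group differed more than the groups. Cd4 averaged 1.28 FPKM over all libraries, but the T cell genes Cd3e, Cd3d and Cd3g reached at most 0.109, 0.0490 and 0.0529 FPKM. Whether the Flt3 and Trbc2 values come from dendritic cells and lymphocytes was not tested. All 6 ependymal genes had a lower mean with exercise than in MPTP, and Foxj1, a regulator of motile cilia, averaged 5.37 ± 1.33 FPKM with exercise, 6.66 ± 1.86 in MPTP and 6.04 ± 0.931 in vehicle. In none of these 3 lists did a gene pass the limma threshold in any comparison (0 of 2, 0 of 2 and 0 of 6 tested genes, and 0 at an unadjusted p under 0.05).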
